A study of Mus musculus with 12 samples.

Results

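The transcripts described here encode the core machinery of apoptosis: caspases, the apoptosome and the proteins that mitochondria release, the BCL2 family, the inhibitor of apoptosis proteins, and the adaptors below death receptors. The list was chosen by gene name and holds 33 genes. Probes were assigned through the accession printed on the array, and 31 of the 33 genes were matched to 52 probes, with no matched probe for *Bok* or *Bcl2a1a*. Of those probes, 46 were well above background on at least 6 arrays in either genotype and were tested, as part of 22979 tested probes out of 41174 on the array. They represent 30 of the 12647 genes tested. The remaining member with a probe, *Hrk*, a BH3-only protein best known from neurons, stood well above background in 0 of the 12 null channels and 0 of the 12 WT channels, so it has no measured ratio.

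The study compared kidneys of *Bdkrb2* null embryos with kidneys of wild-type (WT) embryos at embryonic day 14.5. *Bdkrb2* encodes the bradykinin B2 receptor. Null and WT embryos alike were on a C57BL/6 genetic background, came from matings of *Bdkrb2* heterozygous mice, and had heterozygous mothers fed a diet with 5% sodium. There was no group on normal salt, so the comparison is between genotypes under gestational high salt and says nothing on the effect of salt itself. Total RNA of the null and WT kidneys was hybridised to the same two-colour array, with null RNA in Cy5 on 3 replicates (null/WT) and in Cy3 on the other 3 replicates (WT/null), and each of the 6 replicates was run on 2 arrays. The series calls the replicates biological, but the labels do not give the number of embryos in a sample, nor whether the null/WT and WT/null replicates of a number used the same RNA. If they did, the spread over 6 replicates is partly technical and the p-values are too small. Replicates of a number did deviate together, and counts and intervals with them paired are given beside the main ones. The kidneys hold many cell types, and in such bulk RNA fewer cells of a type and less RNA per cell cannot be told apart.

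Apoptosis removes cells in a controlled way. In the mitochondrial route, BH3-only proteins sense stress and release the pore-forming proteins from their anti-apoptotic BCL2 relatives, cytochrome c then escapes and builds the apoptosome with APAF1, and caspases cut the cell's proteins. In the death receptor route, adaptors bring caspase-8 to the receptor. In the developing kidney, apoptosis takes place in the nephrogenic mesenchyme and stroma, and mice without *Bcl2* are known for small, cystic kidneys, which the loss of *Bcl2l11* (Bim) prevents. Many of these proteins are controlled by cleavage, binding and release, which an array of transcripts does not measure.

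No member gene differed by genotype at the threshold used, an adjusted p under 0.05 from limma with Benjamini-Hochberg adjustment over all tested probes (0 of 30). Over the whole array 9 of 22979 probes passed, which is 0.0392% of them. At an unadjusted p under 0.05 there were 4 members, *Casp12* and *Cflar* with values above 0 and *Bid* and *Htra2* with values below 0. That is 13.3% of the members, against 7.78% of all tested genes and 7.01% of all tested probes. By direction, 2 of 30 members were above 0 and 2 below 0 at that level, against 5.19% and 2.59% of all tested genes. The count was 2 when each null/WT replicate was paired with the WT/null replicate of the same number, 1 without replicate 1 and 1 without the dye term. It was 6 with all 12 arrays and the replicate as a random effect, and over all 20 alternatives it ran from 1 to 6.

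The log2 ratios of the members, null over WT, lay between -0.15 for *Bad* and 0.24 for *Casp12*, with a median of -0.0044. There were 14 members above 0 and 16 below 0, and 48.1% of all tested genes were above 0. The median size of the ratio, sign aside, was 0.043 on the log2 scale for the members and 0.047 for all tested genes. With the dye effect taken out, the standard deviation between the 6 replicates was larger than the size of the mean ratio in 24 of the 30 members. The same held for 11365 of the 12647 tested genes. The smallest adjusted p of a member was 0.503, for *Casp12* (limma).

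These data set limits to the size of any difference. The standard error of a member's log2 ratio had a median of 0.046 and ran between 0.037 and 0.086. The 95% confidence interval held 0 for 26 of the 30 members, lay within a 1.2-fold difference either way for 27, and within a 1.5-fold difference for all 30. The widest reach was that of *Casp12*, whose upper bound was 0.38 on the log2 scale, or 1.30-fold. With the replicates paired by number, leaving 3 values per gene, the interval held 0 for 28 members and the widest reach was 1.34-fold, again for *Casp12*. With the scanner's processed signals in place of offset-corrected ones, 29 members stayed within 1.5-fold and *Bad* reached 1.76-fold. These limits are for transcripts in the whole kidney, on a scale that draws the ratios of dim probes towards 0.

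**Figure D1:**
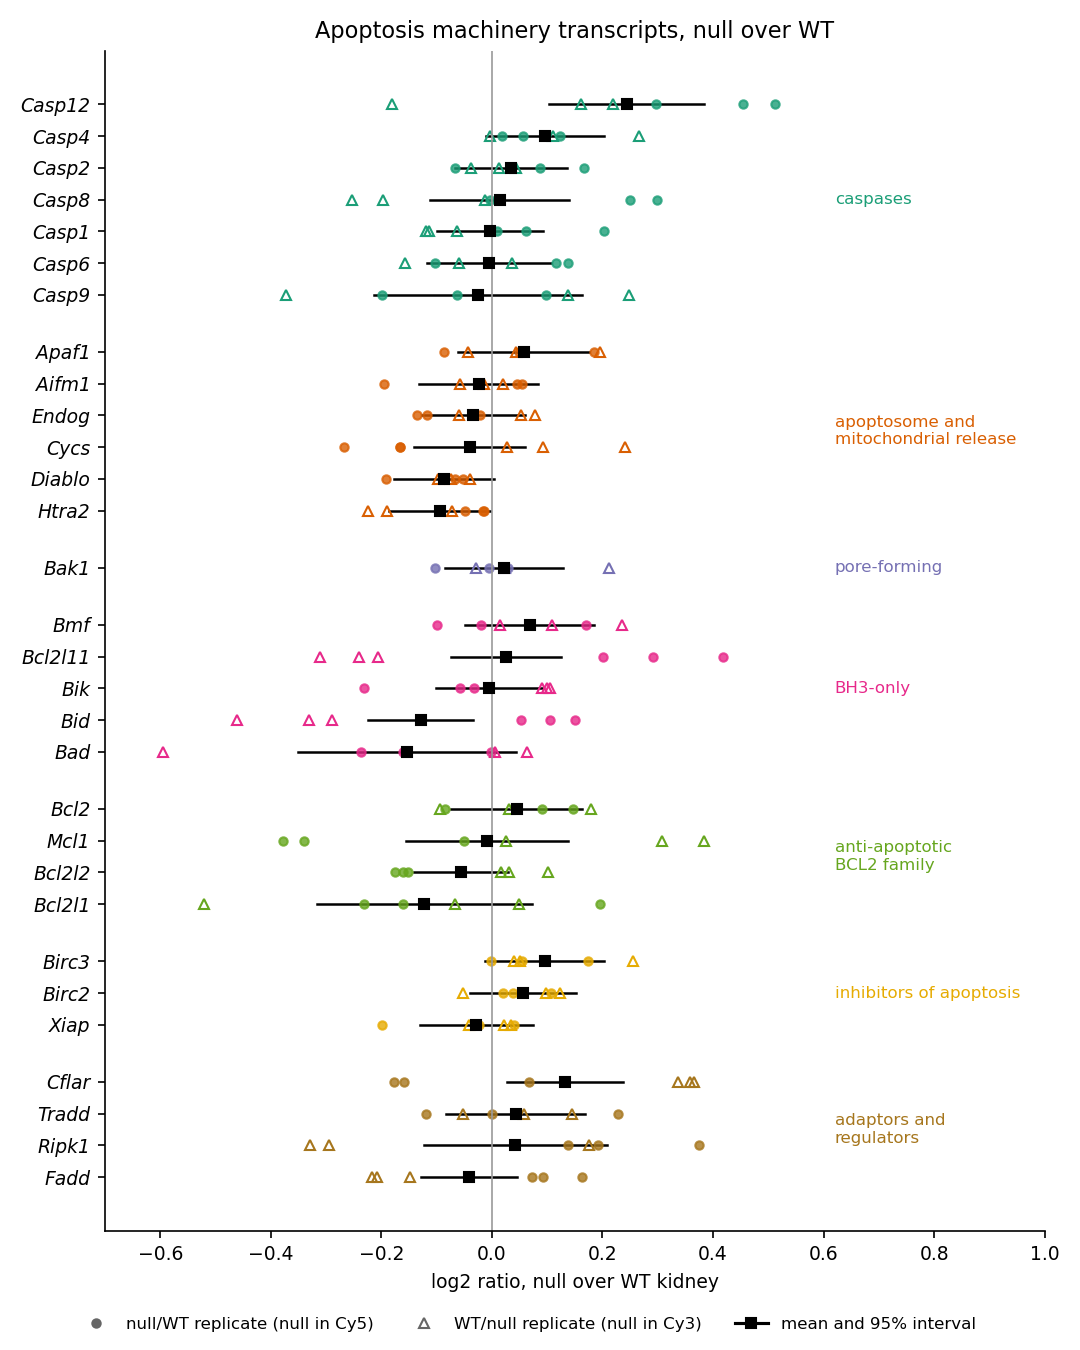
Log2 ratios, null over WT, of the 30 tested members (horizontal axis), grouped by role, with filled circles for the 3 null/WT replicates, open triangles for the 3 WT/null replicates, and a black square with a line for the mean and its 95% interval. For 26 members the line crosses 0. For *Bid*, *Fadd*, *Bcl2l11* and *Casp1* the null/WT replicates are all above 0 and the WT/null replicates all below it. The reverse holds for *Cycs*, *Mcl1*, *Bcl2l2* and *Bik*.

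Among the caspases, the proteases that carry out apoptosis or inflammatory cell death, 7 of 7 members were tested, 4 with a ratio above 0 and 3 below, with a median of 0.014 and 1 member at an unadjusted p under 0.05. *Casp12*, which in mouse encodes a caspase of the endoplasmic reticulum, had log2 ratios of 0.45, 0.30 and 0.51 in null/WT replicates 1, 2 and 3, and of 0.16, -0.18 and 0.22 in WT/null replicates 1, 2 and 3. The null kidney was thus higher in 5 of 6 replicates, with WT/null replicate 2 as the exception. The channel levels ran from 7.58 to 7.92 in null kidneys and from 7.31 to 7.76 in WT kidneys on the log2 intensity scale, and they overlap through that WT/null replicate 2, which had the highest WT level and the lowest null level.

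The *Casp12* ratio averaged 0.24 ± 0.061 (SE, n = 6), a 1.18-fold higher level in null kidneys, with an adjusted p of 0.503 in limma. The probe was dim, above background in 11 of the 12 null and all 12 WT channels. In the 19 alternative processings that measured it, its adjusted p was 0.116 or above and its sign did not turn.

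*Casp4* encodes caspase-11 of the mouse, the receptor of the non-canonical inflammasome for bacterial lipopolysaccharide. Its ratios were 0.06, 0.02 and 0.12 in null/WT replicates 1 to 3 and 0.11, -0.0026 and 0.27 in WT/null replicates 1 to 3. All but WT/null replicate 2 were above 0, but the levels overlapped, at 9.83 to 10.11 in null kidneys and 9.72 to 10.09 in WT kidneys. The mean was 0.10 ± 0.046 (SE, n = 6), with an adjusted p of 0.710 in limma.

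The other caspases lay closer to 0. *Casp2*, an initiator caspase, had a mean log2 ratio of 0.03, *Casp8*, the initiator below death receptors, 0.01, and *Casp9*, the initiator on the apoptosome, -0.03. *Casp6*, an executioner caspase, averaged -0.0048, and *Casp1*, which activates interleukin-1β, -0.0039. None of these 5 had the same sign in all 6 replicates. The probe of *Casp9* was dim and its replicates ran from -0.37 to 0.25, and the duplicate arrays of WT/null replicate 3 gave -0.79 and 0.04 for it.

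*Casp1*, *Casp4* and *Casp12* lie next to each other on chromosome 9 with 0 protein-coding genes between them, in RefSeq's GRCm38.p6 annotation. Their mean ratios were -0.0039, 0.10 and 0.24, and no test of a difference between them was made. To show what these neighbours carry at their starts, the 300 bases around their annotated starts (250 before, 50 after, 5′ to 3′) are given here from RefSeq, GRCm38.p6, plus strand. Capitals mark CCAAT and TATAA, searched on both strands, where ATTGG is CCAAT on the other strand. They also mark an NF-kappaB consensus, searched on the strand shown only.
Casp12, chr9:5345226-5345525: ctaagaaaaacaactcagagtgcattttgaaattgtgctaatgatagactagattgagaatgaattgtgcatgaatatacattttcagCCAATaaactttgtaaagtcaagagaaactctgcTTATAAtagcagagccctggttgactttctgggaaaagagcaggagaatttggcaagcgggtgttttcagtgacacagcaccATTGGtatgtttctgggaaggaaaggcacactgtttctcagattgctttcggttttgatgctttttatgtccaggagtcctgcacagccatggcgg
Casp4, chr9:5308599-5308898: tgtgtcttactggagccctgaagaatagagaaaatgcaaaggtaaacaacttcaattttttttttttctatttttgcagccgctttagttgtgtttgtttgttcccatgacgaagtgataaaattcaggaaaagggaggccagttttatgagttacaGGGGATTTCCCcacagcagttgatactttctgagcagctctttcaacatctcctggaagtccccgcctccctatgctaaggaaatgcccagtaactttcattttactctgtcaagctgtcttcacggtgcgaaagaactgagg
Casp1, chr9:5298267-5298566: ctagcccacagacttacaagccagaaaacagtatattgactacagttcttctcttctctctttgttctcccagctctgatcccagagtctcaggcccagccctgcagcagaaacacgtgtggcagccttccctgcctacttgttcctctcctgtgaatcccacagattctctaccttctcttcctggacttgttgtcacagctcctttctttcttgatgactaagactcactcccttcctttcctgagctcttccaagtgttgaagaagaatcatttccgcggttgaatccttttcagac

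The window of *Casp12* held 2 CCAAT matches and TATAA on both strands, overlapping in TTATAA. That of *Casp4* held the NF-kappaB consensus at 2 overlapping positions. That of *Casp1* held none of the 3 motifs, the NF-kappaB consensus being searched on the shown strand only. Of 32851 promoter windows of the same length, 37.4% held CCAAT, 24.9% TATAA and 5.89% the NF-kappaB consensus on the strand searched. A match is only a description. These 3 windows were also poor in CG dinucleotides, with 3 in *Casp12*, 5 in *Casp4* and 3 in *Casp1*. In the 41 promoter windows matched to 30 of the listed genes the median was 20 CG, against 7 in all windows, and 9 member windows (22.0%) had 5 or fewer, against 43.6% of all windows. The windows of *Casp1*, *Casp4* and *Casp12* were among those 9.

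The apoptosome and the proteins released from mitochondria were all tested (6 of 6), with 1 ratio above 0 and 5 below, a median of -0.037 and 1 member at an unadjusted p under 0.05. *Htra2*, a mitochondrial protease that binds inhibitor of apoptosis proteins once it is released, had ratios of -0.05, -0.02 and -0.01 in null/WT replicates 1 to 3 and of -0.22, -0.07 and -0.19 in WT/null replicates 1 to 3. All 6 were below 0, with the larger ones in the WT/null orientation. The levels overlapped little, at 13.34 to 13.47 in null kidneys and 13.42 to 13.59 in WT kidneys. The mean of -0.09 ± 0.039 (SE, n = 6) had an adjusted p of 0.707 in limma.

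*Diablo* (Smac), which also binds and blocks inhibitor of apoptosis proteins, had ratios of -0.07, -0.05 and -0.19 in null/WT replicates 1 to 3 and of -0.07, -0.04 and -0.10 in WT/null replicates 1 to 3. These 6 were likewise all below 0, and similar in both dye orientations. Levels were 10.30 to 10.56 in null kidneys and 10.34 to 10.63 in WT kidneys, an almost complete overlap, although within each replicate the null channel was the lower in 6 of 6. The mean was -0.09 ± 0.039 (SE, n = 6), with an adjusted p of 0.710 in limma. By the brightest probe of each gene, *Htra2* and *Diablo* were the 2 members of 30 (6.67%) with the same sign in all 6 replicates. The share was 3.04% over all tested genes.

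Within this group *Apaf1*, the scaffold of the apoptosome, averaged 0.06, and *Cycs*, cytochrome c itself, -0.04. *Endog*, a mitochondrial nuclease, averaged -0.03, and *Aifm1*, the apoptosis-inducing factor, -0.02. For *Cycs* there were 3 tested probes, and they gave nearly the same value, -0.04, -0.04 and -0.05. The pair of probes of *Apaf1* gave 0.06 and -0.00044, and the other probe of *Aifm1* gave -0.08.

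Of the pore-forming effectors, which permeabilise the outer mitochondrial membrane, the list held *Bak1* and *Bok*, and *Bak1* was tested. *Bax*, the other main pore-former, belongs to the wider pathway list. The ratios of *Bak1* lay between -0.10 and 0.21 over the 6 replicates, with a mean of 0.02 ± 0.046 (SE, n = 6) and an adjusted p of 0.882 in limma. The other probe of *Bak1* gave the same 0.02. *Bax* averaged -0.02 ± 0.037 (SE, n = 6), with an adjusted p of 0.855 in limma, and is named here for its role, after its value was seen.

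The BH3-only proteins start the mitochondrial route. Of the 6 listed, 5 were tested, 2 with a ratio above 0 and 3 below, with a median of -0.0049 and 1 at an unadjusted p under 0.05. *Bid*, which caspase-8 cuts so that it carries the death receptor signal to mitochondria, had ratios of 0.15, 0.10 and 0.05 in null/WT replicates 1 to 3, but of -0.29, -0.33 and -0.46 in WT/null replicates 1 to 3. The sign thus followed the dye orientation in 6 of 6 replicates, and the mean of -0.13 ± 0.041 (SE, n = 6) is the mean over orientations of opposite sign. Its adjusted p was 0.633 for genotype and 0.013 for the dye term, both from limma. Levels overlapped, at 9.10 to 9.32 in null kidneys and 9.16 to 9.59 in WT kidneys.

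*Bad*, a BH3-only protein that growth factor signalling keeps inactive by phosphorylation, had the ratio farthest below 0. It was -0.24, -0.0014 and -0.16 in null/WT replicates 1 to 3 and 0.0060, 0.06 and -0.60 in WT/null replicates 1 to 3. A large part of the mean came from WT/null replicate 3, whose duplicate arrays gave -0.85 and -0.34. The mean was -0.15 ± 0.086 (SE, n = 6), with an adjusted p of 0.716 in limma. Without WT/null replicate 3 it was -0.05, and with the scanner's processed signals -0.37. This probe too was dim, above background in 10 of the 12 null and all 12 WT channels.

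The other 3 BH3-only members had mean ratios near 0. *Bmf*, tied to the cytoskeleton and loss of attachment, averaged 0.07 on each of its 2 probes. *Bcl2l11* (Bim), a main activator of the pore-forming proteins, averaged 0.03, with 0.42, 0.29 and 0.20 in null/WT replicates 1 to 3 and -0.21, -0.24 and -0.31 in WT/null replicates 1 to 3. Here the sign followed the dye in every replicate, as for *Bid*, but the orientations nearly cancelled, and the dye term had an adjusted p of 0.0084 in limma. *Bik*, a BH3-only protein of the endoplasmic reticulum, averaged -0.0049.

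The anti-apoptotic BCL2 proteins hold the pore-forming members in check. Of 5 listed, 4 were tested, 1 with a ratio above 0 and 3 below, with a median of -0.033 and 0 at an unadjusted p under 0.05. *Bcl2* averaged 0.04, *Bcl2l1* (Bcl-xL) -0.12, *Bcl2l2* (Bcl-w) -0.06 and *Mcl1*, a short-lived member of the family, -0.0088. *Bcl2* had a probe printed in 10 spots on each array. The standard deviation of the log2 ratio between those spots had a median of 0.034 over the 12 arrays and ran from 0.018 to 0.085. A probe of *Bcl2l1*, also in 10 spots, had a median of 0.080 and ran from 0.032 to 0.58, the highest in WT/null replicate 3.

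On that *Bcl2* probe, the brightest of the gene, the ratios were 0.15, -0.09 and 0.09 in null/WT replicates 1 to 3 and 0.18, -0.09 and 0.03 in WT/null replicates 1 to 3. The orientations of a number lay close to each other, and number 2 lay apart from numbers 1 and 3 with the opposite sign. These differences between numbers were larger than those between spots or dyes, but an F test over the numbers gave an adjusted p of 0.262. The mean of 0.04 ± 0.051 (SE, n = 6) had an adjusted p of 0.785 in limma. The other *Bcl2* probe did not show this order: its means in numbers 1, 2 and 3 were 0.04, -0.0057 and -0.22, and its orientations lay far apart, with a dye term at an adjusted p of 0.040. *Bcl2l1* had 3 probes, with means of -0.12, -0.04 and -0.03, and the value farthest from 0 was that of the brightest probe. In WT/null replicate 3 that probe gave -0.52, and without replicate number 3 its mean was 0.0040.

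The inhibitor of apoptosis proteins bind caspases or their upstream complexes. All 3 listed were tested, 2 with a ratio above 0 and 1 below, with a median of 0.056 and 0 at an unadjusted p under 0.05. *Birc3* (cIAP2), a ubiquitin ligase and an NF-kappaB target, had ratios of 0.05, -0.0021 and 0.17 in null/WT replicates 1 to 3 and of 0.04, 0.05 and 0.25 in WT/null replicates 1 to 3. Number 3 was the highest in both orientations. Levels were 8.43 to 8.60 in null kidneys and 8.31 to 8.43 in WT kidneys, meeting at 8.43, and the mean of 0.10 ± 0.047 (SE, n = 6) had an adjusted p of 0.710 in limma. *Birc2* (cIAP1), which lies next to *Birc3* on chromosome 9, averaged 0.06, and *Xiap*, the direct caspase inhibitor, -0.03.

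The adaptors and regulators of death receptors were all tested (4 of 4), with 3 ratios above 0 and 1 below, a median of 0.043 and 1 member at an unadjusted p under 0.05. *Cflar* (c-FLIP), a caspase-8 relative without protease activity that limits caspase-8, had ratios of -0.16, -0.18 and 0.07 in null/WT replicates 1 to 3 and of 0.34, 0.37 and 0.36 in WT/null replicates 1 to 3. The ratios of the WT/null orientation were all above those of null/WT, and levels overlapped, at 12.27 to 13.02 in null kidneys and 12.32 to 12.94 in WT kidneys. The mean of 0.13 ± 0.045 (SE, n = 6) had an adjusted p of 0.648 for genotype and 0.019 for the dye term, from limma.

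*Cflar* had 4 tested probes, and the other 3 gave 0.11, 0.01 and 0.0012, so its probes ran from near 0 up to that of the brightest. *Tradd*, the adaptor of the tumour necrosis factor receptor, averaged 0.04, *Ripk1*, a kinase at the same receptor, 0.04, and *Fadd*, the adaptor that recruits caspase-8, -0.04. The other tested probe of *Ripk1* gave -0.11, with all 6 replicates below 0, and that of *Fadd* gave 0.09. In 12 members more than 1 probe was tested, and in 5 of them the probes had opposite signs (*Apaf1*, *Bcl2l11*, *Bcl2*, *Fadd* and *Ripk1*), and none of these probes passed the threshold.

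**Figure D2:**
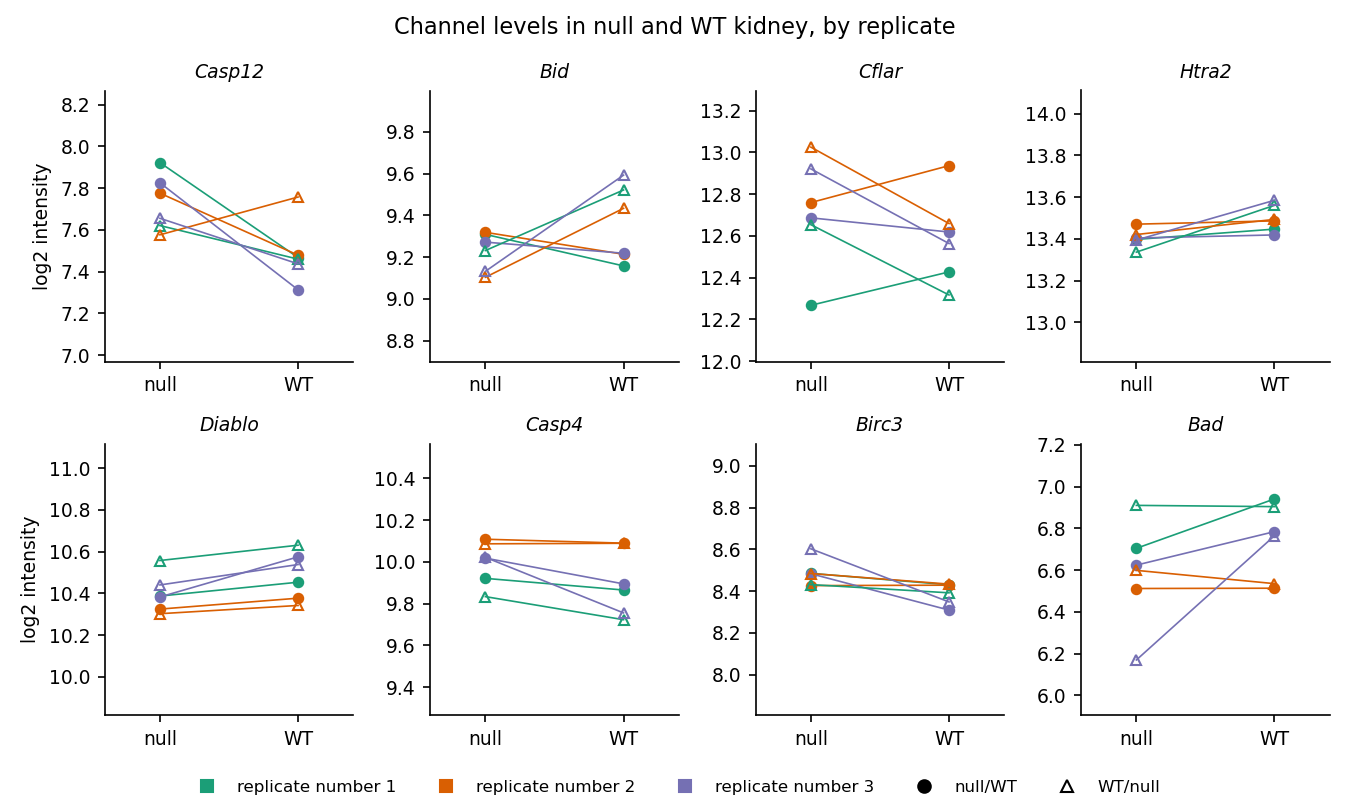
Log2 intensity of the 8 members with the smallest p (vertical axes, 1 panel a gene, ranges of equal length), null at left and WT at right, with a line joining the channels of 1 replicate and a colour for each replicate number. Lines slope down from null to WT in 5 of 6 replicates for *Casp12*, slope up in 6 of 6 for *Htra2* and *Diablo*, and cross by dye orientation for *Bid*.

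**Figure D3:**
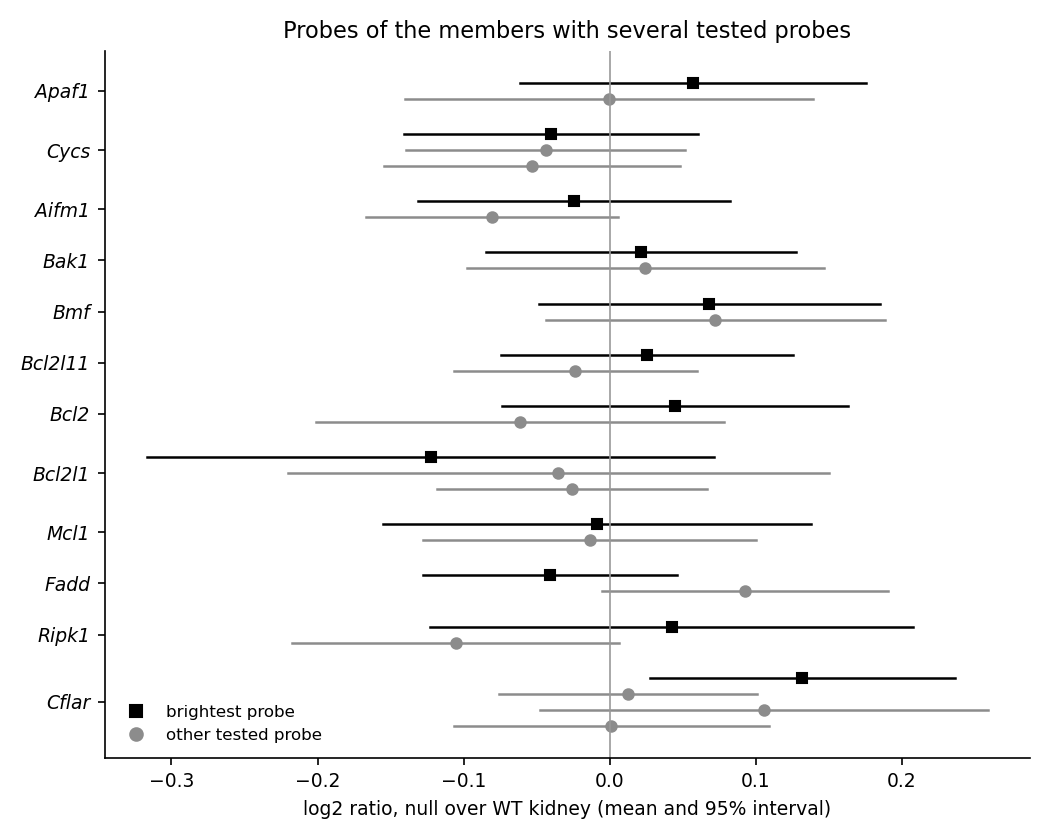
Log2 ratio, null over WT, with its 95% interval (horizontal axis) for every tested probe of the 12 members with several, black squares for the brightest probe and grey circles for the others. The 3 *Cycs* probes nearly coincide, while the probes of *Ripk1*, *Fadd* and *Bcl2* lie on either side of 0.

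The dye term itself passed the threshold for 6 of the 30 members (20%), *Bid*, *Cflar*, *Bcl2l11*, *Cycs*, *Fadd* and *Mcl1*, against 15.7% of all tested genes. For *Mcl1* the ratios were -0.34, -0.38 and -0.05 in null/WT replicates 1 to 3 and 0.31, 0.03 and 0.38 in WT/null replicates 1 to 3, so it read above 0 whenever the null RNA carried Cy3. With equal numbers of both orientations these dye effects cancel in the mean.

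The replicates of a number were run on 1 slide, so slide and replicate number cannot be told apart. Taken as the mean of both orientations, the members' ratios were compared between numbers 1, 2 and 3 with an F test in limma, and 0 of 30 passed an adjusted p under 0.05, against 1.67% of all tested genes. At an unadjusted p under 0.05 there were 6 members, a share of 20%, against 19.8% of all tested genes. The member with the smallest p was *Bcl2l1*, with -0.11, 0.12 and -0.38 in numbers 1, 2 and 3 and an adjusted p of 0.160. *Casp12* followed, with 0.31, 0.06 and 0.37 and an adjusted p of 0.217, and then *Mcl1*, with -0.02, -0.18 and 0.17 and an adjusted p of 0.224 (limma). *Casp12* was thus high in numbers 1 and 3 and close to 0 in number 2.

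Of the 14 members with a mean ratio above 0, 7 had their highest value in number 3 and 4 their lowest. Of the 16 members below 0, 6 had their highest value in number 3 and 9 their lowest. Over all 30 members, 13 were highest and 13 lowest in number 3, so it held no common direction. The same counts were not made over all tested genes. The standard deviation of the ratios on an array was 0.20 to 0.37 in number 3 and 0.13 to 0.16 in numbers 1 and 2. Among those highest in number 3 were *Casp4* at 0.08, 0.01 and 0.19 in numbers 1, 2 and 3, *Birc3* at 0.05, 0.02 and 0.21, *Tradd* at -0.09, 0.03 and 0.19, and *Apaf1* at 0.05, -0.07 and 0.19. Values of cell type markers also stood at different levels in the numbers, which was not tested for the lists. Skeletal muscle markers, a tissue outside the kidney, had a median log2 ratio of 0.14, 0.41 and 2.16 in numbers 1, 2 and 3 (7 of 8 listed genes tested, 6 above 0), and their summed level on the log2 scale ran from 10.67 to 12.29 in null kidneys and from 10.65 to 10.78 in WT kidneys. Markers of macrophages and leukocytes had medians of -0.04, 0.08 and 0.21 (11 of 12 tested, 11 above 0). Their summed levels were 12.35 to 12.82 in null kidneys and 12.37 to 12.76 in WT kidneys. These cells are known for *Casp1*, *Casp4* and *Birc3*. *Casp4* and *Birc3* had the values given above, and *Casp1* was at -0.03, -0.03 and 0.04 in numbers 1, 2 and 3. Any part of these cells in those ratios was not tested. No tested marker of these lists was below background in all null or all WT channels.

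Endothelial markers were above 0 in 6 of 6 genes, with medians of 0.10, 0.04 and 0.18 in numbers 1, 2 and 3 and summed levels of 13.95 to 14.21 in null kidneys and 13.80 to 14.11 in WT kidneys. Proximal tubule markers had medians of -0.08, 0.57 and 1.30 (3 of 4 tested), with summed levels of 10.23 to 12.54 in null kidneys and 10.13 to 12.23 in WT kidneys. Nephron progenitor markers, the cells from which nephrons form, were below 0 in 4 of 4 genes, with medians of 0.03, -0.07 and -0.17 and summed levels of 14.30 to 14.47 in null kidneys and 14.41 to 14.67 in WT kidneys. Whether these cell types take part in the members' ratios was not tested. Without number 3 the mean of *Casp12* was 0.18 and that of *Bcl2l1* 0.0040, and 0 members passed.

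**Figure D4:**
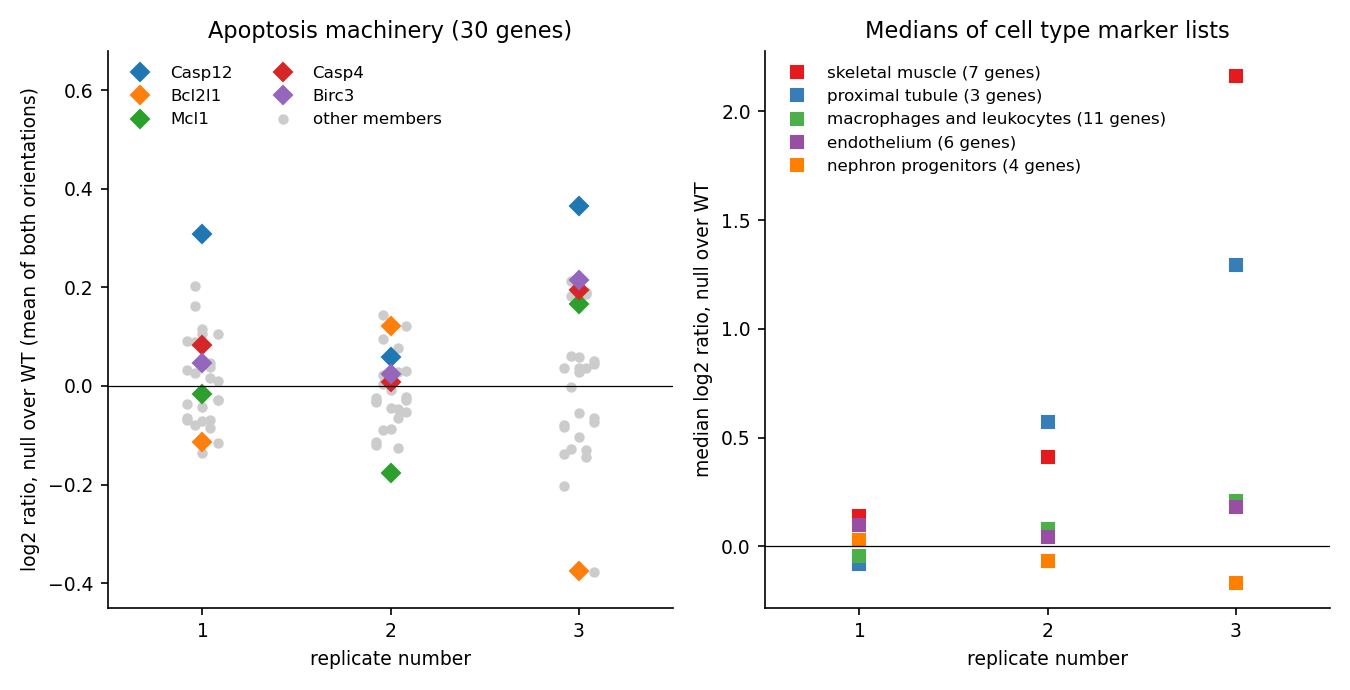
Left, log2 ratio, null over WT, of the 30 members in each replicate number (mean of both dye orientations), with 5 members in colour and the others in grey. Right, the median log2 ratio of 5 cell type marker lists on a wider scale: the skeletal muscle markers reach 2.16 in number 3, where *Casp12* is at 0.37 and *Bcl2l1* at -0.38.

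The sexes of the embryos were not balanced either. *Xist*, the transcript of the inactive X chromosome, was detected above background in 4 of 4 null channels of each number, but in 4 of 4 WT channels of number 1 and 0 of 4 WT channels of numbers 2 and 3. The Y-linked *Ddx3y*, *Kdm5d* and *Eif2s3y* were above background in 0 of 4 null channels of every number, and in 0 of 4 WT channels of number 1 and 4 of 4 of numbers 2 and 3. In numbers 2 and 3 genotype and sex therefore cannot be told apart. The X-linked members are *Xiap*, at 0.03, -0.03 and -0.08 in numbers 1, 2 and 3, and *Aifm1*, at 0.02, -0.13 and 0.04. The other tested probe of *Aifm1* differed, at -0.07, -0.09 and -0.08.

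The targeted gene gave no check of the genotype, since the *Bdkrb2* probe was above background in 0 of 12 null channels and 1 of 12 WT channels. Duplicate arrays of a replicate correlated at 0.711 to 0.923 over the tested probes. The lowest was WT/null replicate 3, where a member's duplicates differed by up to 0.83 on the log2 scale. Without that replicate 0 members passed and 3 had an unadjusted p under 0.05.

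Around the core machinery, 49 other genes of the pathway were listed, among them death receptors and further relatives of the BCL2 and inhibitor families. All 49 were on the array and 43 were tested. None passed the threshold (0 of 43, limma), 18 were above 0 and 25 below, with a median of -0.0043, and 3 (6.98%) had an unadjusted p under 0.05, against the 7.78% of all tested genes given above. The smallest p values above 0 were those of *Bnip3*, a mitochondrial protein induced by hypoxia, at 0.18 ± 0.051 (SE, n = 6, adjusted p 0.571 in limma), of *Pmaip1* (Noxa), a p53-induced BH3-only protein, at 0.19 ± 0.058 (adjusted p 0.615), and of *Birc6*, a giant inhibitor of apoptosis protein, at 0.12 ± 0.040 (adjusted p 0.642). Below 0 they were those of *Parp1*, a DNA repair enzyme that caspases cut, at -0.14 ± 0.064 (adjusted p 0.710), of *Bcl2l13*, a mitochondrial BCL2 relative, at -0.11 ± 0.073, and of *Acin1*, a caspase target in chromatin condensation, at -0.11 ± 0.076 (adjusted p 0.729 for the last pair, limma).

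Between the replicate numbers 2 of the 43 genes passed the F test (4.65%), against 1.67% of all tested genes, and both are named for that reason, after their values were seen. *Xaf1*, which binds *Xiap*'s protein, had ratios of -0.23, 0.67 and 0.15 in numbers 1, 2 and 3 (adjusted p 0.020), and *Bcl2l12* had 0.41, 0.55 and -0.20 (adjusted p 0.048, limma).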

How the data were processed

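Total RNA of null and WT kidneys was measured on 12 two-colour Agilent arrays. The scanner files held median spot and background intensity per dye, deposited without further normalization, and log10 ratios, per the file headers. Those headers name version 10.5.1.1 of Agilent Feature Extraction and the submitters' processing notes version 6.1. The series value table, as deposited by the authors, held log10 ratios. Its columns correlated with the scanner ratios turned to null over WT at 0.998 to 0.999, with slopes of 1.00, which settles direction and scale. How its blank entries were chosen stays unknown. Its column medians were 0.000114, -0.00174, -0.00332, -0.00315, 0.00645 and 0.00146 on null/WT arrays and -0.00257, -0.00441, -0.000946, -0.000769, -0.0218 and -0.0100 on WT/null arrays. No column lacked a sample.

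Intensities were corrected with normexp (offset 50) and normalized by loess within each array in limma 3.58.1 (R 4.3.3). Control spots, and 101 to 262 outlier spots an array, had weight 0 and were left out. The design had named mean signals, but the files hold medians. Ratios were turned to null over WT, and duplicate arrays averaged into 6 replicates. Levels are from Aquantile-normalized channels. Probes well above background on at least 6 arrays in a genotype entered a limma fit of genotype and dye, with Benjamini-Hochberg adjustment. A gene was represented by its brightest tested probe. Precision is limited by the number of replicates rather than of arrays, since duplicate arrays were averaged. The fit was tested on simulated data, where it called 100 of 100 probes with a change of 0.5. With a change of 0.25 it called 50 of 100, so a difference of that size can be missed. Of 22779 probes without a change it called 11.

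Replicates of a number deviated together, with correlations of 0.587, 0.517 and 0.413 for numbers 1, 2 and 3, so the numbers pair the samples. The main fit took the 6 replicates as independent, so its standard errors and p-values tend to be too small. With the replicates paired, the members' median standard error was 0.057 against 0.046. The interval of *Bid* then held 0, and the smallest adjusted p of a member was 0.904 in limma. Members and lists were chosen with earlier results of these data known. Every member is named. Full statistics are given for those past the threshold or, with fewer than 5, for the 8 with the smallest p. Of the other pathway genes the 3 smallest p in each direction are given, and of the F test the 3 smallest. Alternatives changed the background correction, scaling, filter, probe choice, duplicates, block, dye term and replicates.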

Additional observations from a re-analysis of the deposited data

How the results depend on the processing

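Over 20 alternatives no member passed the threshold, and the smallest adjusted p was 0.116, for *Casp12* with all 12 arrays and the replicate as a random effect. With the replicate block, in which null/WT and WT/null replicates of a number are paired, 0 members and 4 probes passed. The slide is the same block. The count of all probes past the threshold, 9 as reported, was 148 with the random effect, 62 without replicate 3, 15 when the first array of WT/null replicate 3 was left out, 6 under median centring, 6 without null/WT replicate 1, 6 with the first array of each replicate, 5 without null/WT replicate 2 and 3 without replicate 2. Of 566 member values under the alternatives other than median centring, 1 counted as changed, *Fadd* at 0.026 as the mean of its probes. For the 8 members with full statistics, a change meant a turned sign or passing the threshold. For the others it meant a move larger than the standard deviation between replicates with the dye effect taken out, and a turned sign did not count. Median centring aside, the sign turned in 6 alternatives each for *Casp1*, *Casp8* and *Casp9*, and in 5 each for *Ripk1* and *Casp6*. It turned in none for the 8 members with full statistics.

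Median centring in place of loess moved the median of all tested probes to 0.14 on the log2 scale. Under it 29 members were above 0, and 20 were above that shift, a count chosen after seeing the data. The members' median was 0.18, *Bid* was at 0.037, *Htra2* at 0.11 and *Diablo* at 0.098, all with the opposite sign against 0, but at -0.10, -0.026 and -0.040 against the shift, which keeps their direction. Under it 21 of 30 members differed between numbers, against 49.8% of all tested probes, and 28 of 30 passed the dye term, against 71.6%. The members' shares were the higher ones, but the sets are unlike. Each member stands for its brightest probe only, and the shares were not taken over the brightest probes of all genes. On single arrays the median ratio of tested probes then ran from -0.67 to 0.84, and the cause of these moves was not tested. The members' median ran from -0.00965 to 0.012 when replicates or an array were left out, the highest value coming from dropping the first array of WT/null replicate 3. Dim probes such as *Bad*, *Casp9* and *Casp12* limit what can be read.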
